A study of Arabidopsis thaliana with 18 samples.

Results

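Alpha-expansins are small secreted proteins that loosen the plant cell wall. The 8 genes described here are the alpha-expansins EXPA1, EXPA3, EXPA4, EXPA5, EXPA8, EXPA10, EXPA11 and EXPA15 of Arabidopsis thaliana. They were taken from the count tables by their locus identifiers, with no threshold on a measured value, and the set was drawn up with earlier results of these data known. They are 8 of the 33341 loci counted and 8 of 25 alpha-expansins looked up, and all 8 passed the filter on low counts (above 1 CPM in at least 3 libraries) that left 17986 loci for testing.

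Transcripts were measured by mRNA-seq in leaves 4 to 9 of 3-week-old wild-type (WT, Col-0) plants, with 3 labelled libraries in each of 4 groups and 1 plant per library. Primed plants that received a further, triggering exposure to excess light (EL) form the P+T group, and primed plants without it form the P group. Naïve plants that received the triggering EL as their first exposure form the N+T group, and untreated naïve plants form the N group. EL was 1000 μmol photons m-2 s-1 for 1 h, given 3 times a day to primed plants for a week, and all plants grew in a 12 h photoperiod at 100 to 150 μmol photons m-2 s-1. DNA methylation was measured by MethylC-seq, which counts methylated cytosines after bisulfite treatment, in 3 strs2 and 3 WT plants. The strs2 line is a T-DNA insertion mutant of a DEAD-box RNA helicase in the Col-0 background, and its transcripts were not analysed here.

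Growing plant cells enlarge by turgor against a wall of cellulose microfibrils tied together by xyloglucan. Expansins bind this network and let the microfibrils slip apart without cutting them, and they act best at acid pH, which the plasma membrane proton pumps provide. In leaves, auxin, brassinosteroids and the PIF and HBI1 transcription factors are known to raise expansin transcripts while cells expand. EXPA10 is known from antisense plants to affect leaf and petiole size, and EXPA1 also acts in guard cells.

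Library totals lay between 3665503 counts (N+T-r3) and 33081543 counts (P-r3), and organelle and rRNA loci held at most 2.56% of a library. Levels are given as CPM, the counts of a locus divided by the library's total over nuclear loci and brought to a common total. Tests are the quasi-likelihood F test of edgeR with Benjamini-Hochberg adjustment over all 17986 loci and an adjusted p below 0.05. They used 10 libraries, without N-r3 and N+T-r3, which the study left out as standing apart. CPM of both are given below for the 8 members. The SE printed with an edgeR log2 fold change is its absolute value divided by the square root of F, whereas DESeq2 gives its own SE. Of the tissue markers, all 6 photosynthetic leaf genes were above 1 CPM in every library, while 4 flower markers together reached at most 1.10 CPM. The 5 root markers summed to 15.6 to 33.2 CPM, and 1 of them was above 1 CPM in every library. The summed level of 6 evening-phased clock genes was 541 to 630 CPM in P+T and 444 to 551 CPM in N+T libraries, whereas it was 146 CPM in P-r3 and 138 CPM in N-r3 against 403 to 667 CPM in the other P and N libraries. The part of this difference in the expansin values was not tested. In leaf tissue sequenced in bulk, fewer cells of a type and less RNA per cell cannot be told apart.

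The genes lie apart from each other in the genome, and 7 of 8 hold the letters of at least 1 motif searched. EXPA1 (AT1G69530, chr1:26141726-26143538, forward strand), EXPA10 (AT1G26770, chr1:9259432-9261313, forward) and EXPA11 (AT1G20190, chr1:6998335-6999839, reverse) are on chromosome 1. EXPA15 (AT2G03090, chr2:916806-918671), EXPA3 (AT2G37640, chr2:15787523-15790139), EXPA4 (AT2G39700, chr2:16543832-16545746) and EXPA8 (AT2G40610, chr2:16948791-16950705) are on the reverse strand of chromosome 2, and EXPA5 (AT3G29030, chr3:11011262-11013451) on that of chromosome 3, all in TAIR10 coordinates. The RefSeq annotation of TAIR10.1 gives each gene 3 or 4 exons, and no other annotated gene overlaps a member or ends within the 1000 bases before one. No 64-base word of any member occurs elsewhere in the nuclear genome. The encoded proteins have 252 (EXPA11) to 275 residues (EXPA1). EXPA1 and EXPA10 are the most similar pair, with 84.3% identical residues, EXPA3 and EXPA4 share 78.6%, and EXPA11 is the most distant member, with at most 63.2% identity to any other. All 8 cysteines of EXPA1 and 5 of its 8 tryptophans are kept in every member.

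The 250 bases before the start of 4 members are shown: EXPA1, EXPA5 and EXPA11, which passed a test under triggering, and EXPA10, which did not. EXPA3 also passed, in N+T against N, and is not shown. Of the motifs searched, its 250 bases hold only TATAAA. Capitals mark motifs searched on both strands: the PBE-box CACATG bound by PIF factors, the brassinosteroid response element CGTGTG, the auxin response element TGTCTC and the TATA box TATAAA. A motif on the other strand appears as its reverse complement. Sequences are from TAIR10.1, 5′ to 3′ towards the gene.
EXPA1, chr1:26141476-26141725: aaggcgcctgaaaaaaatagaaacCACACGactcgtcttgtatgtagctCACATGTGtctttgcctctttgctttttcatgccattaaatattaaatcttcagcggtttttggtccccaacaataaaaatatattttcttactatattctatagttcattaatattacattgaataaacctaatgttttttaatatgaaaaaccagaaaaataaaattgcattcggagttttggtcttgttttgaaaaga
EXPA10, chr1:9259182-9259431: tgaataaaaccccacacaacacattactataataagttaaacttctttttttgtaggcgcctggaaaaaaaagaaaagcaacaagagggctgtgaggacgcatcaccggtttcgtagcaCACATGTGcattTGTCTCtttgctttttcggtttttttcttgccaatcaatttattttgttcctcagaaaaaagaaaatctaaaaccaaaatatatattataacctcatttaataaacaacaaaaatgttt
EXPA11, chr1:6999840-7000089: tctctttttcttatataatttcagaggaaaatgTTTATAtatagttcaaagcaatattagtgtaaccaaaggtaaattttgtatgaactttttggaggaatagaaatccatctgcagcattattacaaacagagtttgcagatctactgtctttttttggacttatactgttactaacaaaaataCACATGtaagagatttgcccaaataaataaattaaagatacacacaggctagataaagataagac
EXPA5, chr3:11013452-11013701: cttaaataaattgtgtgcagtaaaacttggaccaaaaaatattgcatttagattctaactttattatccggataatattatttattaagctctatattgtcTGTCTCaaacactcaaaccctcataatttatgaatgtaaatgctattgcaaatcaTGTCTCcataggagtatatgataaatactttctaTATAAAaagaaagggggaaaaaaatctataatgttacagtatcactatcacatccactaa
CACATG occurred in 3 of the 8 promoters, against 11.09% of 27443 promoters of this length. In EXPA1 and EXPA10 it lies on both strands as the overlapping CACATGTG, and the longest run that these promoters share, ctctttgctttttc, follows it closely in both. CGTGTG was found in EXPA1 (5.37% of all promoters), TGTCTC in EXPA5 and EXPA10 (10.95%) and TATAAA in 5 members (47.35%). The heat shock pair GAANNTTC was found in EXPA15 (9.55%). EXPA8 held none of the motifs searched. In no member were found the G-box CACGTG (6.49% of all promoters), the further brassinosteroid and auxin elements CGTGCG (1.57%) and TGTCGG (4.16%), the site II motifs TGGGCC (13.65%) and TGGGCT (12.33%) or the evening element AAATATCT (4.79%). These matches are letters in a window and do not show binding.

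The order of the members by level, over the 10 libraries in the tests, differed between the groups. RPKM, counts scaled by the counted gene span as well as by depth, allows genes to be compared, and the span includes introns. In P leaves EXPA1 came first with 105 to 109 RPKM and lay apart from all others, followed by EXPA8 with a mean of 39.1 RPKM (5.35 to 87.6) and EXPA5 with 21.3 RPKM. In N leaves EXPA1 was again first (41.6 and 44.7 RPKM), ahead of EXPA5 (28.0 and 31.2 RPKM) and EXPA10 (21.5 and 29.6 RPKM), which overlapped. In N+T-r1 and r2 EXPA10 led (51.7 and 26.4 RPKM), above EXPA1 (14.8 and 21.2 RPKM). In the omitted N+T-r3 EXPA1 came first, with 25.0 RPKM against 23.7 RPKM for EXPA10. In P+T leaves EXPA10 (8.72 to 36.4 RPKM) and EXPA1 (18.8 to 26.1 RPKM) overlapped at the top. EXPA15 was last in P+T, P and N leaves, at means of 4.46, 2.88 and 6.01 RPKM.

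**Figure D1:**
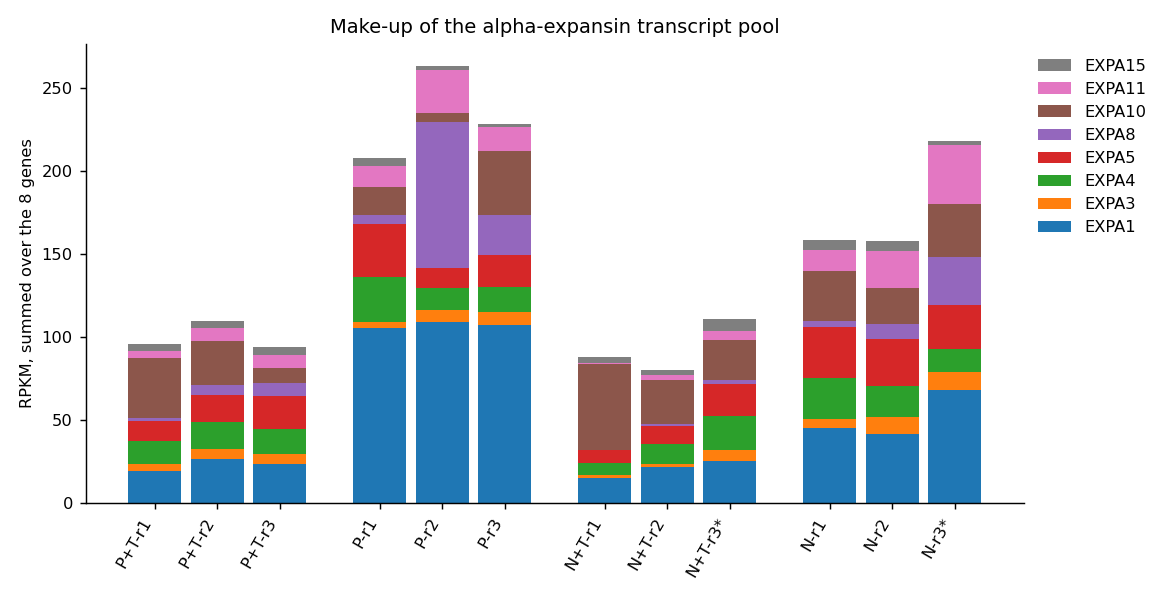
Stacked bars give the RPKM of each of the 8 genes in each library, grouped as P+T, P, N+T and N. Asterisks mark the 2 libraries left out of the tests. The sum is 94.0 to 110 RPKM in P+T and 208 to 264 RPKM in P libraries, and EXPA1 makes up 19.7% to 25.1% of it in P+T and 41.4% to 50.6% in P libraries.

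The summed RPKM of the 8 genes was 94.0 to 110 in the P+T libraries, against 208 to 264 in the P libraries, with no overlap. It was 87.7, 79.9 and 110 in N+T-r1, r2 and r3, against 158, 158 and 218 in N-r1, r2 and r3, again with no overlap. EXPA1 supplied 19.7% to 25.1% of the sum in P+T libraries and 41.4% to 50.6% in P libraries. Its share was 16.9% to 26.6% in N+T libraries, all 3 included, and 26.4% to 31.1% in N libraries. EXPA10 made up 58.9% of the sum in N+T-r1 and 9.28% in P+T-r3, so its share varied widely within triggered leaves.

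EXPA1 was lower after triggering in both primed and naïve leaves. It had 34.2, 47.3 and 42.7 CPM in P+T-r1, r2 and r3, against 191, 198 and 194 CPM in P-r1, r2 and r3. The highest P library was 1.04-fold the lowest, and every P+T library was far below them. The log2 fold change of EXPA1 in P+T against P was −2.21 (SE 0.19, edgeR adjusted p = 0.00493, n = 3 each), a 4.64-fold lower level. In naïve leaves EXPA1 had 26.8, 38.4 and 45.3 CPM in N+T-r1, r2 and r3, against 81.0, 75.4 and 123 CPM in N-r1, r2 and r3. All N+T libraries lay below all N libraries, the omitted ones included. The log2 fold change of EXPA1 in N+T against N was −1.09 (SE 0.23, edgeR adjusted p = 0.0213, n = 2 each), or 2.13-fold lower. The summed level of 5 morning-phased clock genes also lay lower in P+T (174 to 226 CPM) than in P libraries (262 to 349 CPM). It was 166 to 226 CPM in N+T, against 31.7 to 186 CPM in N libraries. The part of these clock differences in the EXPA1 values was not tested.

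**Figure D2:**
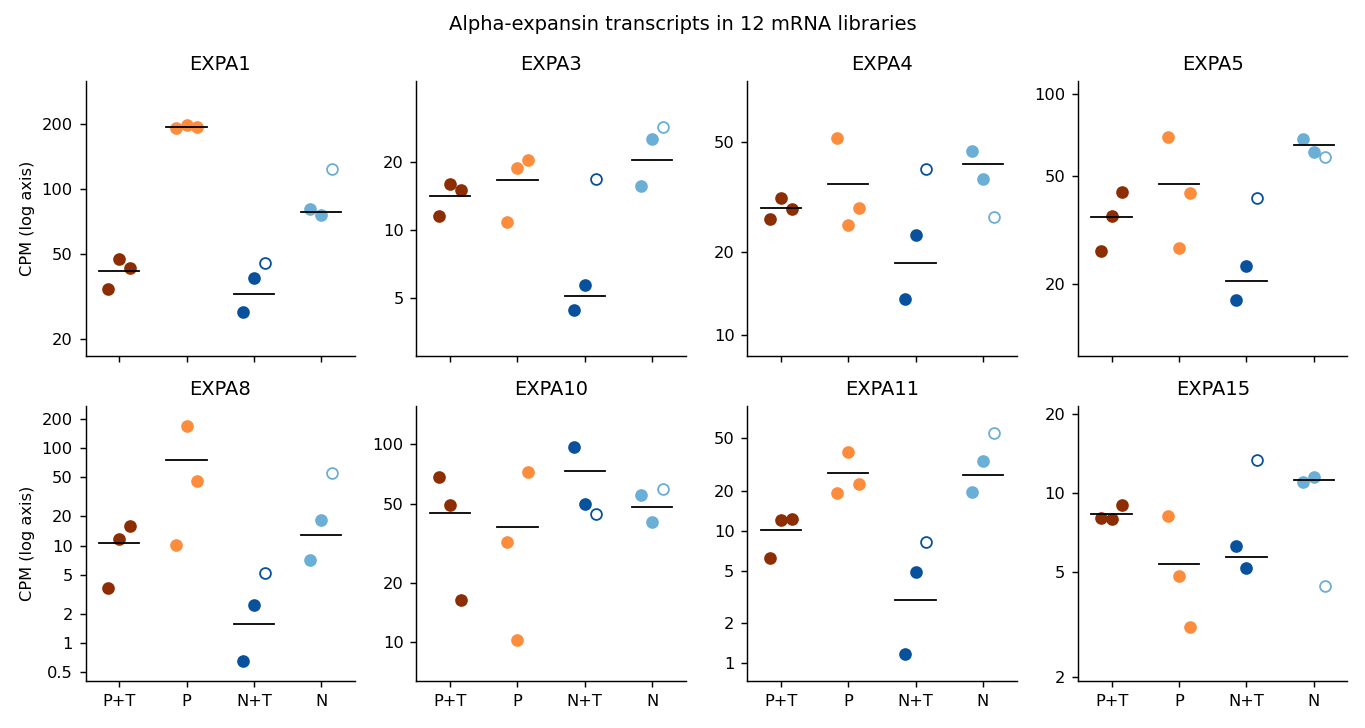
Each panel shows the CPM of 1 gene on a log axis for the P+T, P, N+T and N libraries, replicates 1 to 3 from left to right. Open circles are N-r3 and N+T-r3, which were left out of the tests, and lines are means of the other libraries. EXPA1 lies at 191 to 198 CPM in P and at 34.2 to 47.3 CPM in P+T, while EXPA10 overlaps between triggered and untriggered groups.

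EXPA11 and EXPA8, which are known to be raised by brassinosteroids, had lower means in triggered leaves in both settings, and of these differences that of EXPA11 in naïve leaves passed. EXPA11 had 6.23, 11.9 and 12.2 CPM in P+T-r1, r2 and r3, against 19.2, 39.3 and 22.3 CPM in P-r1, r2 and r3. The groups did not overlap, yet the log2 fold change of −1.41 (SE 0.50) did not pass in edgeR (adjusted p = 0.148, n = 3 each). EXPA11 had 1.18, 4.84 and 8.19 CPM in N+T-r1, r2 and r3, against 19.6, 33.2 and 54.0 CPM in N-r1, r2 and r3, also without overlap. It fell in N+T against N by 2.88 on the log2 scale (SE 0.66, edgeR adjusted p = 0.0278, n = 2 each), or 7.35-fold. The N+T-r1 value rests on 9 reads.

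EXPA8 varied widely between plants of a group. It had 3.7, 11.8 and 15.8 CPM in P+T-r1, r2 and r3, against 10.2, 168 and 46.4 CPM in P-r1, r2 and r3, a 16.4-fold range within the P group. Its N+T libraries held 0.654, 2.46 and 5.19 CPM, the first from 5 reads, against 7.14, 18.2 and 55.3 CPM in the N libraries. The N+T and N libraries did not overlap. Neither log2 fold change passed in edgeR, with −2.88 (SE 1.01, adjusted p = 0.147) in P+T against P and −2.71 (SE 1.33, adjusted p = 0.182) in N+T against N.

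EXPA3 and EXPA5 fell in triggered naïve leaves and did not pass in primed leaves, and EXPA4 passed in neither. For none of these genes did the difference between the naïve and primed responses pass. EXPA3 had 11.5, 16 and 15 CPM in P+T-r1, r2 and r3, against 10.9, 18.9 and 20.4 CPM in P-r1, r2 and r3, and the groups overlapped. EXPA3 had 4.45, 5.72 and 16.9 CPM in N+T-r1, r2 and r3, against 15.6, 25.4 and 28.5 CPM in N-r1, r2 and r3. Only the omitted N+T-r3 reached into the N range. EXPA3 fell in N+T against N by 1.83 on the log2 scale (SE 0.42, edgeR adjusted p = 0.0274), against a difference of −0.25 (SE 0.32, adjusted p = 0.716) in P+T against P.

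EXPA5 had 26.4, 35.5 and 43.6 CPM in P+T-r1, r2 and r3, against 69.6, 27.2 and 43.2 CPM in P-r1, r2 and r3. In naïve leaves it had 17.5, 23.4 and 41.5 CPM in N+T-r1, r2 and r3, against 68.3, 61.4 and 58.5 CPM in N-r1, r2 and r3. The primed groups overlapped and the naïve groups did not. EXPA5 fell in N+T against N by 1.49 on the log2 scale (SE 0.37, edgeR adjusted p = 0.0333), and differed by −0.34 (SE 0.29, adjusted p = 0.546) in P+T against P. EXPA4 followed EXPA5, with 26.3, 31.5 and 28.6 CPM in P+T, against 51.9, 25.0 and 28.8 CPM in P libraries. It had 13.5, 23.1 and 40.1 CPM in N+T-r1, r2 and r3, against 46.4, 36.6 and 26.7 CPM in N-r1, r2 and r3. The log2 fold change of EXPA4 in N+T against N, −1.01 (SE 0.31), did not pass (edgeR adjusted p = 0.0580), and with the omitted libraries the groups overlapped and the value was −0.39 (SE 0.37).

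EXPA10 and EXPA15, the members closest to EXPA1 in protein sequence, did not pass a test in either direction. EXPA10 had 68.4, 49.5 and 16.4 CPM in P+T-r1, r2 and r3, against 32.1, 10.2 and 72.1 CPM in P-r1, r2 and r3. It had 97.2, 49.7 and 44.5 CPM in N+T-r1, r2 and r3, against 55.6, 40.5 and 59.4 CPM in N-r1, r2 and r3. Its groups overlapped, and the log2 fold changes were 0.21 (SE 0.70, edgeR adjusted p = 0.896) in P+T against P and 0.80 (SE 0.86, adjusted p = 0.537) in N+T against N. EXPA15 had 8.03, 7.95 and 8.99 CPM in P+T, against 8.19, 4.82 and 3.08 CPM in P libraries. It had 6.28, 5.17 and 13.4 CPM in N+T-r1, r2 and r3, against 11, 11.5 and 4.44 CPM in N-r1, r2 and r3. Its log2 fold changes were 0.69 (SE 0.27, edgeR adjusted p = 0.189) in P+T against P and −0.80 (SE 0.34, adjusted p = 0.134) in N+T against N, and the omitted libraries of EXPA15 ran opposite to the others of their groups.

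**Figure D3:**
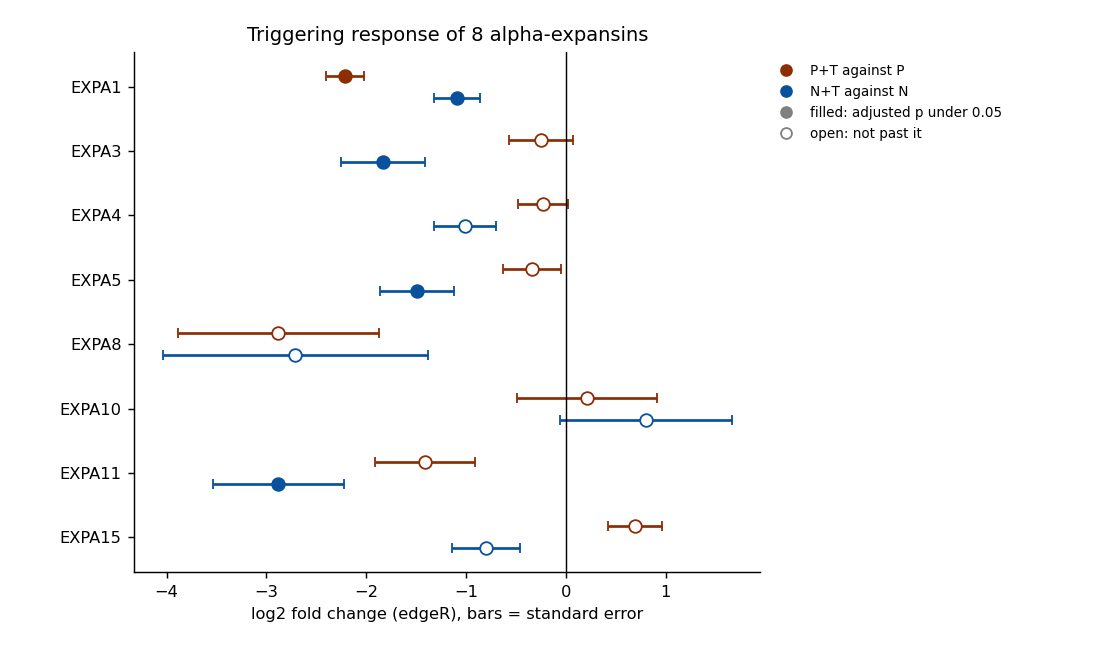
Log2 fold changes of the 8 genes are shown for P+T against P (brown) and N+T against N (blue), filled where the edgeR adjusted p is below 0.05. Bars are the SE worked back from F. EXPA1 is filled in both, at −2.21 and −1.09, and EXPA3, EXPA5 and EXPA11 are filled in N+T against N.

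In P+T against P, 1 of 8 members was called lower and 0 higher, where 2.44% of all loci were called lower and 2.05% higher. In N+T against N, 4 of 8 were called lower and 0 higher, where 7.43% of all loci were called lower and 7.74% higher. Of all calls in N+T against N 49.0% were lower, and 70.4% when libraries were scaled by size alone, which moved the median of all loci to −0.17. The median log2 fold change of the members was −0.30 in P+T against P and −1.29 in N+T against N, beside −0.01 and 0.00 over all loci tested. With DESeq2, 3 members were called lower in P+T against P (6.93% of loci) and 6 in N+T against N (10.8%). With all 12 libraries in the fit, EXPA1 was called lower in P+T against P (0.328% of loci), and EXPA1 and EXPA11 in N+T against N (2.01%). No member was called in N+T against N after leaving out N-r1, N-r2 or N+T-r1. Each of these leaves 1 library in a group, whose spread is then taken from the other groups. Leaving out N+T-r2 does so too, but members were still called there. Without N+T-r1 the log2 fold changes of EXPA1 and EXPA11 were −0.91 and −2.34, and without N+T-r2 they were −1.31 and −4.25. Why these fits differ was not tested. EXPA1 was called in P+T against P under all 19 alternatives run, with a log2 fold change between −2.33 and −2.08. Without overlap, 2 members were lower in P+T than in P libraries (13.8% of loci). All but EXPA10 were lower in N+T than in N among the 10 libraries (45.8% of loci), and EXPA1, EXPA5, EXPA8 and EXPA11 were so among all 12 (15.9%).

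Whether the response to triggering differed between primed and naïve leaves was tested directly by the interaction, the log2 fold change in P+T against P minus that in N+T against N. No member passed, and 1 locus in all (0.00556% of the loci tested) was called lower. In edgeR, 4 members had an unadjusted p below 0.05, as did 3007 of the 17986 loci tested. EXPA1 had the more negative value in primed leaves, by −1.12 (SE 0.29, edgeR adjusted p = 0.195). EXPA3 and EXPA5 had the less negative one, by 1.58 (SE 0.52, adjusted p = 0.234) and 1.15 (SE 0.46, adjusted p = 0.275). For EXPA15 the value was 1.49 (SE 0.44, adjusted p = 0.214), with opposite signs, 0.69 in primed and −0.80 in naïve leaves. DESeq2 called EXPA1 in the interaction (−1.15, SE 0.33, adjusted p = 0.0205), where it called 2.78% of loci lower. A difference between primed and naïve responses was thus not shown for any member by edgeR.

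Before triggering, EXPA1 stood higher in primed leaves. Its P libraries (191 to 198 CPM) all lay above its N libraries (75.4 to 123 CPM), as did those of 2.83% of all loci. The log2 fold change of EXPA1 in P against N was 1.44 (SE 0.22), but neither EXPA1 nor any other member or locus passed in edgeR (adjusted p = 0.261, 0.0% of loci called in either direction). In edgeR, 3 members had an unadjusted p below 0.05, as did 1576 of the 17986 loci tested. These members were EXPA1, EXPA15 with −0.98 (SE 0.30) and EXPA8 with 2.76 (SE 1.19). DESeq2 called EXPA1 (adjusted p = 1.38e-06) and 1.23% of all loci higher in P against N. With all 12 libraries the log2 fold change of EXPA1 was 1.08 (SE 0.31, edgeR adjusted p = 0.959). The summed CPM of 5 morning-phased clock genes also lay higher in P (262 to 349 CPM) than in N libraries (31.7 to 186 CPM), and its part in the EXPA1 difference was not tested.

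After triggering, 7 members had higher values in P+T than in N+T leaves and EXPA10 a lower one, but none passed the test (0.0% of loci called higher). An unadjusted p below 0.05 was found in edgeR for 2 members and for 3595 of the 17986 loci tested. The largest log2 fold changes were those of EXPA8 with 2.59 (SE 1.27, edgeR adjusted p = 0.281), EXPA11 with 1.65 (SE 0.61, adjusted p = 0.211) and EXPA3 with 1.45 (SE 0.39, adjusted p = 0.198). DESeq2 called EXPA3 (1.43, SE 0.42, adjusted p = 0.0280) and 1.31% of all loci higher. Among the 10 libraries, 6 members were higher in P+T without overlap (24.5% of loci). With N+T-r3 included all 8 overlapped (7.47% of loci higher without overlap), since that library exceeded r1 and r2 of its group for every member except EXPA10.

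Across the 12 libraries, which share treatments and depths, the members formed groups of like pattern. EXPA8 and EXPA11 had a Pearson correlation of log2 CPM of 0.891, EXPA3 and EXPA11 of 0.887 and EXPA4 and EXPA5 of 0.849. EXPA10 was negatively placed to 7 members, most to EXPA8 (−0.584): P-r2 held the most EXPA8 (168 CPM) and the least EXPA10 (10.2 CPM), and N+T-r1 the reverse (0.654 and 97.2 CPM). Although EXPA1 and EXPA10 are closest in protein sequence, their correlation was −0.361. To the mean pattern of the 8 members, single members had correlations between −0.233 (EXPA10) and 0.914 (EXPA5). The 5 loci outside the members most like this mean were TET7 (AT4G28050, r = 0.982), a tetraspanin gene, AT2G12400 (0.978), AT4G17180 (0.976), AT5G52930 (0.975) and AT2G28150 (0.975). Of these, TET7 had 12.6 to 15.1 CPM in P+T, against 17.2 to 20.6 CPM in P, and 8.77 to 15.3 CPM in N+T, against 19.2 to 20.0 CPM in N libraries.

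Other genes of wall growth were also called lower in naïve leaves, but for cellulose synthesis the omitted N-r3 went the other way. Of the 17 alpha-expansins outside the members, 5 were tested, and EXPA6 and EXPA20 fell in N+T against N. EXPA6 had 60.1 to 62.7 CPM in P+T, against 78.5 to 95.8 CPM in P, and 40.8, 59.6 and 104 CPM in N+T-r1, r2 and r3, against 140 to 143 CPM in N libraries. Its log2 fold change was −0.51 (SE 0.14, edgeR adjusted p = 0.0864) in P+T against P and −1.32 (SE 0.18, adjusted p = 0.00784) in N+T against N. The omitted N+T-r3 was again nearest to the N libraries. EXPA20 reached at most 2.36 CPM (N-r2), and its log2 fold change in N+T against N was −1.79 (SE 0.41, edgeR adjusted p = 0.0273). No beta-expansin or expansin-like gene of the 5 tested was called.

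Of 8 genes of primary wall cellulose synthesis, 7 fell in N+T against N and none passed in P+T against P, with medians of −1.11 and −0.40. In the omitted N-r3, however, 5 of the 7 (CESA1, CESA2, CESA5, CESA6 and CSI1) lay below every N+T library, and of the 8 genes only COB had every N+T library below every N library. CSI1 had 75.9, 73.4 and 80.6 CPM in N+T-r1, r2 and r3, against 198 CPM in N-r1, 216 CPM in N-r2 and 16.6 CPM in N-r3. They include CESA1 (−1.09 in N+T against N, edgeR adjusted p = 0.0164), CESA2 (−1.33, adjusted p = 0.0155) and CSI1, which links the synthase complex to microtubules (−1.29, adjusted p = 0.00711). Xyloglucan endotransglucosylase/hydrolases (XTH), which cut and rejoin xyloglucan, went both ways. Of 16 tested, XTH4 (−2.85), XTH5 (−1.53) and XTH8 (−2.21) fell in N+T against N and XTH30 (2.07) rose, while in P+T against P 3 fell. With all 12 libraries XTH4, XTH5 and XTH8 still did not overlap between N+T and N, whereas XTH30 had 0.273 CPM in N+T-r3, below the 1.29 to 1.93 CPM of the N libraries. None of the 6 plasma membrane proton pump genes was called in either contrast. The SAUR genes of acid growth, which activate those pumps, did not pass either, although all 11 tested had negative values in both contrasts (medians −0.69 in P+T against P and −1.20 in N+T against N). Among 13 growth transcription factors, HBI1 fell in P+T against P (−3.94, SE 0.67, edgeR adjusted p = 0.0205) and ARF6 in N+T against N (−1.60, SE 0.35, adjusted p = 0.0235).

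**Figure D4:**
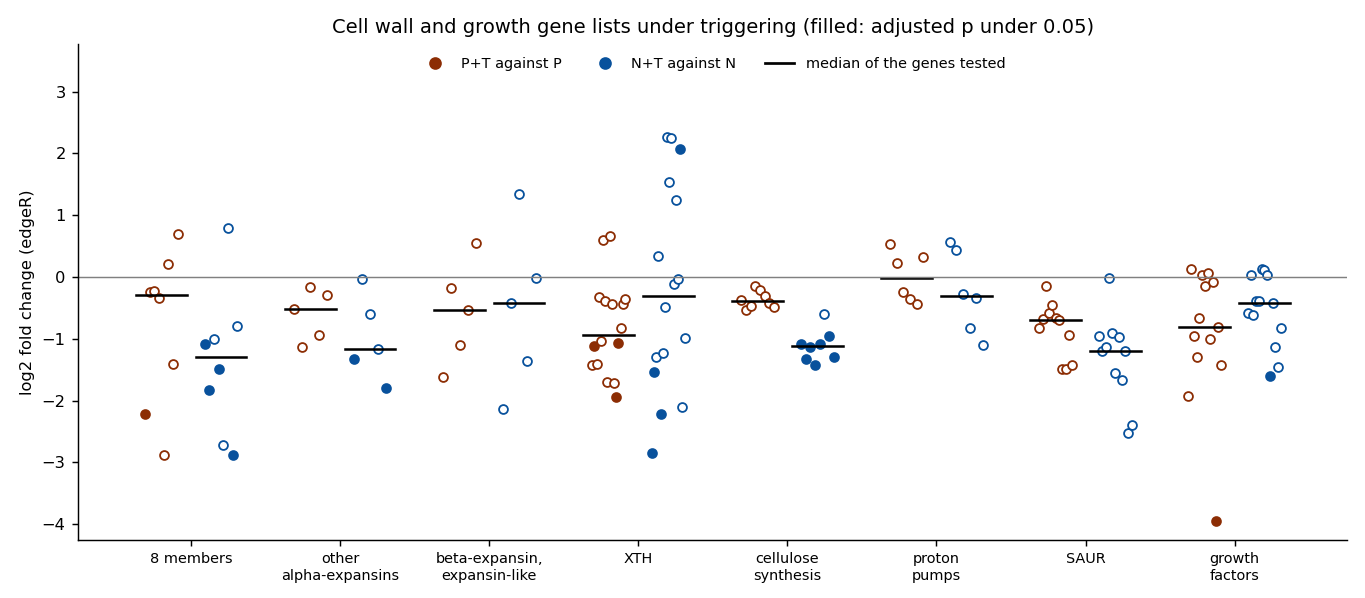
Log2 fold changes of every tested gene in 8 lists are shown for P+T against P (brown) and N+T against N (blue), filled where the edgeR adjusted p is below 0.05, with black lines at the medians. The members' medians are −0.30 and −1.29, and 7 of 8 cellulose synthesis genes are filled in N+T against N.

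Some markers of the epidermis and of dividing cells, and 1 of photosynthetic leaf tissue, were called lower in triggered naïve leaves. Of all loci, 7.43% were called lower there. Of 5 epidermal markers, 4 fell in N+T against N, and the list summed to 402 to 583 CPM in N+T, against 778 to 1080 CPM in N libraries. The lowest N sum, that of N-r3, held 560 CPM of KCS6 and 145 CPM of ABCG12, while its ATML1 (30.4 CPM), PDF2 (19.6 CPM) and KCS10 (23.2 CPM) were below every N+T library. In primed leaves 1 epidermal marker fell, and the sums were 480 to 664 CPM in P+T, against 554 to 921 CPM in P libraries. Of 7 markers of dividing cells, none fell in P+T against P, whereas 3 fell in N+T against N. They summed to 11.5 to 18.8 CPM in N+T, against 8.48 to 29.2 CPM in N libraries, and 4 of the 7 were below every N+T library in N-r3. Of 6 photosynthetic leaf markers, 1 (CAB3) fell in N+T against N and none was called in P+T against P. Only 4 of the 6 had negative values in N+T against N, and their median log2 fold change was −0.16. All N+T libraries lay below all N libraries for CAB3, the omitted ones included. No guard cell, trichome or vascular marker was called, and no gene of these lists was at 0 in every library. The part of these markers in the expansin values was not tested. Of 5 tested genes of the EL response, 1 rose in P+T against P and 3 rose in N+T against N, and the list of 6 summed to 2820 to 3250 CPM in P+T, against 329 to 1010 CPM in P, and 3390 to 4750 CPM in N+T, against 848 to 1300 CPM in N libraries.

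The gene bodies of all 8 members were unmethylated in leaves of both genotypes. Levels are methylated calls over all calls at cytosines read more than 3 times, in WT and strs2 plants whose labels give no light treatment. In CG context no member exceeded 0.897% in a strs2 plant or 1.39% in a WT plant, near the 0.434% to 0.586% at which chloroplast CHH cytosines, which carry no methylation, were counted as methylated. By comparison, 39.8% of 27123 genes had a WT CG level above 10%. The strs2 and WT levels did not overlap for 3 of 8 members (EXPA5, EXPA10 and EXPA11, lower in strs2), where 26.2% of all genes did not overlap. For EXPA11 they were 0.0%, 0.267% and 0.0% in strs2-r1, r2 and r3, against 0.595%, 1.16% and 0.588% in WT-r1, r2 and r3 (exact permutation p = 0.1, two-sided, the smallest possible with 3 against 3, n = 3 each). These levels rest on 596 to 850 calls per plant. In CHG 1 member did not overlap (10.2% of genes) and in CHH 1 (9.55%).

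In the 1000 bases before the start, 7 members were likewise low, at most 2.53% in any plant and context (EXPA10, CHG) apart from 5.88% CG in strs2-r1 for EXPA5, whose window held only 7 to 10 read CG cytosines per plant. Levels did not overlap for 0 members in CG (16.6% of genes), 0 in CHG (9.39%) and 2 in CHH (10.2%). EXPA15 was the exception to the low levels. Its window held 34.7%, 41.6% and 40.1% CG methylation in strs2-r1, r2 and r3, against 34.7%, 15.4% and 37.2% in WT-r1, r2 and r3, and the genotypes overlapped (exact permutation p = 0.2, n = 3 each, where 0.1 is the smallest possible).

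In 100-base bins the methylation before EXPA15 formed 1 block. Between 800 and 1400 bases before the start, a stretch chosen after the bins were seen (chr2:919472-920071), CG levels were 81.0%, 76.1% and 81.1% in strs2-r1, r2 and r3, against 73.6%, 79.2% and 77.9% in WT-r1, r2 and r3. CHG levels were 52.6% to 55.7% in strs2, against 42.9% to 56.1% in WT plants, and CHH levels 22.1% to 33.8% in strs2, against 19.3% to 22.8% in WT plants. The strs2 minus WT differences were 2.50, 3.17 and 5.83 percentage points in CG, CHG and CHH, with exact permutation p = 0.4, 0.8 and 0.2 (two-sided, n = 3 each), where 3 plants against 3 cannot give a p below 0.1. Methylation in all 3 contexts is the form known from silenced repeats, whereas gene body methylation is confined to CG. CG cytosines were read only up to 1200 bases, so the CG level covers 800 to 1200 bases. Over the nearest 700 bases together the levels were at most 2.82% in CG and 0.516% in CHH, and over 1400 to 2000 bases at most 0.787% and 0.714%. In the 100 bases between, from 700 to 800, CG levels were 0.0%, 5.0% and 25% in strs2-r1, r2 and r3, against 33.3%, 11.1% and 0.0% in WT-r1, r2 and r3, on 9 to 24 calls per plant. No gene is annotated in the part of the block within 1000 bases of the start, and the part beyond was not looked up. Its first 200 bases on the gene side are shown because they lie within the methylated stretch, with the 8 CG dinucleotides in capitals, on the strand of EXPA15.
EXPA15 upstream, chr2:919472-919671: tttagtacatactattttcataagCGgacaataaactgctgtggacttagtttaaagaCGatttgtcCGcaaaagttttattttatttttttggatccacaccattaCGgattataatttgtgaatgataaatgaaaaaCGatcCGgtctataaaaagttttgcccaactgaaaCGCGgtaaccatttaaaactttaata
In WT-r2 only 10 CG cytosines of the block were read, against 21 to 24 in the other plants. At the 9 read in every plant, CG levels were 67.9% to 77.0% in strs2 and 69.0% to 81.2% in WT plants. WT-r2, the plant with the lowest level over the 1000-base window, was therefore not lower within the block.

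**Figure D5:**
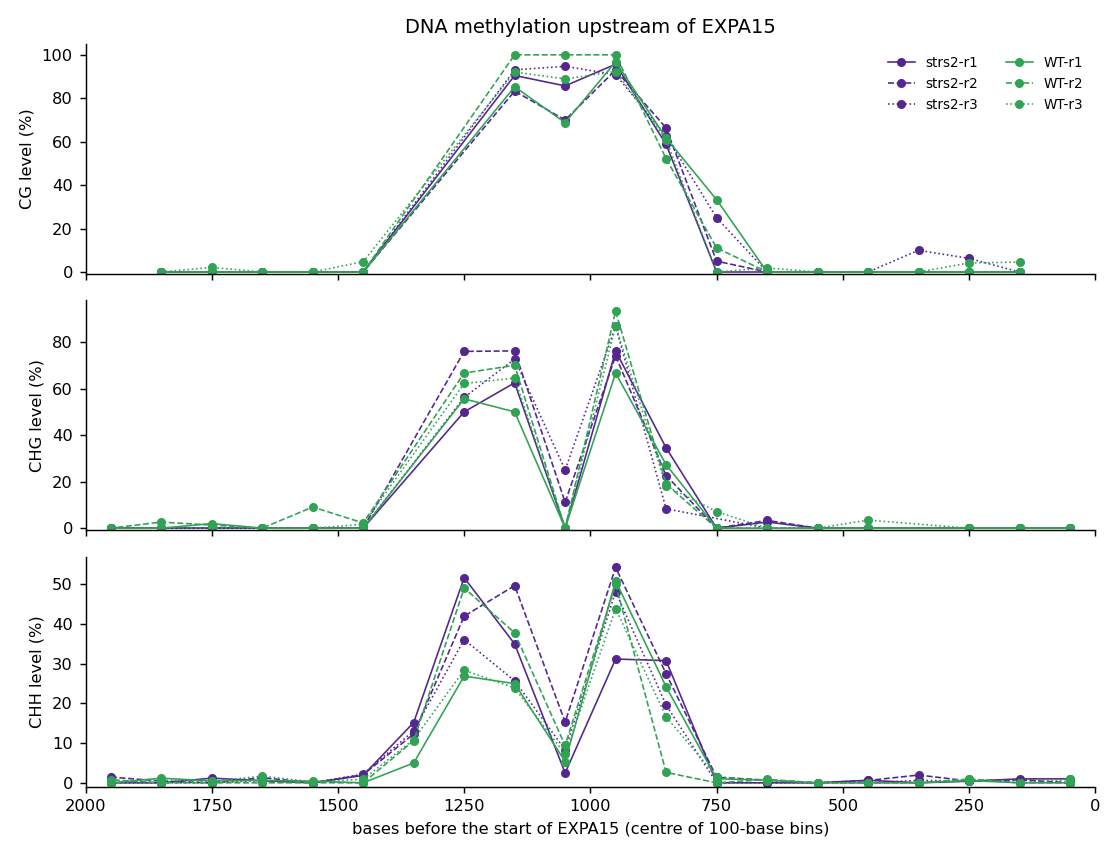
Lines give the CG, CHG and CHH methylation level in 100-base bins over the 2000 bases before EXPA15 for 3 strs2 and 3 WT plants, and bins without a read cytosine carry no point. All 6 plants share a block between 800 and 1400 bases, where CG sites, read up to 1200 bases, have levels of 73.6% to 81.1%. CG levels are 0.0% to 33.3% between 700 and 800 bases and at most 2.82% over the nearest 700 bases together.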

How the data were processed

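Raw counts of mRNA reads per locus were deposited, made by the authors with featureCounts (Subread 1.6.2) on TAIR10 alignments with Araport11 genes, counted by strand over whole gene spans. Per the study's methods, replicates are independent plants, so p-values rest on the spread between plants. In edgeR that spread is pooled over the groups of the fit and moderated across loci. Depth was 3665503 to 33081543 counts. Loci above 1 CPM in at least 3 of 12 libraries were kept and scaled by TMM. They were tested with edgeR 4.0.16 (glmQLFit in its older form, legacy = TRUE, glmQLFTest, Benjamini-Hochberg) on 10 libraries. The edgeR test was also run on simulated counts with 200 loci changed by 2 on the log2 scale. Outlying libraries were not simulated, so this run does not measure how the test performs on these data. For methylation, the authors deposited methylated and unmethylated counts per cytosine from Bismark 0.14.5; cytosines with at least 4 reads and regions with at least 20 calls were used, compared by exact permutation tests. Low-depth values carry counting error. The members and gene lists were chosen with earlier results of these data known. Named genes are the members, called genes of the lists and the 5 loci most like the members' mean. Alternatives were DESeq2 1.42.0, all 12 libraries, scaling, filters, glmQLFit with legacy = FALSE, only the groups of a contrast, a replicate block and leaving out each library. With legacy = FALSE the same members were called in P+T against P and in N+T against N.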

Additional observations from a re-analysis of the deposited data

Results flagged for a closer look

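EXPA15 had 13.4 CPM in N+T-r3, a library left out of the tests, above its highest N library (11.5 CPM) and above 6.28 and 5.17 CPM in N+T-r1 and r2. This library has the lowest total of the series, 3665503 counts.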

How the results depend on the processing

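With DESeq2, 3 members were called in P+T against P, 1 in P against N, 1 in P+T against N+T and 1 in the interaction, in place of 1, 0, 0 and 0. With all 12 libraries, 2 members were called in N+T against N in place of 4. Replicate numbers were not taken as pairs in the main tests. Deviations from the group means correlated above 0.1 in 9 of 13 same-number pairs. They correlated at 0.148 to 0.367 in the 6 of number 1, −0.184 to 0.412 in the 6 of number 2 and −0.327 in that of number 3. In N and N+T, with 2 libraries each, the deviations mirror each other, so the pairs are not independent. These values do not show the numbers to be unrelated. A replicate block gave 2 members in P+T against P, adding EXPA11 (−1.39, edgeR adjusted p = 0.0419), and 4 in N+T against N. Leaving out 1 library gave 0 to 5 members in N+T against N, 1 to 3 in P+T against P and 0 to 2 in P against N. Without P-r1, EXPA8 (−3.42, edgeR adjusted p = 0.033) and EXPA15 (0.99, adjusted p = 0.035) joined EXPA1 in P+T against P, and EXPA1 (1.54) and EXPA15 (−1.29) passed in P against N. That fit called 2242 of 17986 loci in P+T against P and 637 in P against N. Over all loci, DESeq2 called 2158 in P+T against P, 4509 in N+T against N, 342 in P against N, 750 in P+T against N+T and 753 in the interaction, in place of 806, 2729, 0, 0 and 1. With all 12 libraries 155 were called in P+T against P and 717 in N+T against N, and P+T against P gave 209 when its 2 groups were fitted alone and 525 with the replicate block. Leaving out 1 library gave 77 to 2242 called loci in P+T against P and 1 to 4166 in N+T against N. Depth limits EXPA8 and EXPA11 most, with 5 and 9 reads in N+T-r1.

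With all 12 libraries the sign turned for EXPA15 both in N+T against N (0.02) and between the triggered groups, P+T against N+T (−0.03), EXPA11 in P against N (−0.37) and EXPA8 in the interaction (0.47). EXPA8 in the interaction also turned by library size alone (0.03) and with the replicate block (0.82). Leaving out 1 library gave ranges of −0.39 to 0.02 for EXPA4 and −0.23 to 1.18 for EXPA10 in P+T against P. In P against N it gave −0.43 to 0.26 for EXPA3, −0.41 to 0.04 for EXPA4, −1.16 to 0.25 for EXPA10 and −0.26 to 0.61 for EXPA11. In the interaction it gave −0.98 to 1.29 for EXPA8 and −1.04 to 0.38 for EXPA10. None of these was called, and the cause was not tested. For gene body CG, 1 member did not overlap at a depth of 3 and over (27.5% of genes) and 0 at 10 (12.4%), in place of 3 (26.2%). With the mean of single cytosines as the level, 2 members did not overlap (30.9%).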
